A study of Homo sapiens with 9 samples.

Results

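The genes described here are 44 interferon-stimulated genes, taken from the count table by their symbols. The rule used no measured value, although the list was drawn up with earlier results of these data known. They are 44 of the 48162 genes counted, and 40 of them passed the filter on low counts that left 15776 genes for testing. IFITM1, IFITM2, RSAD2 and IFI44L did not pass it. Messenger RNA levels were read by sequencing in SKMEL28, an established human melanoma cell line, in 3 groups of 3 libraries. All cells were grown in DMEM with 5% FBS, transduced with lentivirus and kept for 3 days in 1 µg/ml puromycin, so the controls carried a hairpin virus and the selection too. The shCont cells carried a hairpin against GFP, which the cells do not have, the shp16 cells a hairpin against p16 (the product of CDKN2A), and the shp16+shATR cells hairpins against p16 and against the kinase ATR. Which ATR hairpin was sequenced, and whether the shp16 cells received a second control virus, is not given in the sources used here. The libraries of a group were technical replicates of 1 experiment, so every p-value measures the spread between these libraries and not that between separate infections. The design asks how the transcriptome differed after loss of p16, and after loss of ATR on top of it.

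Interferons are secreted proteins that bind receptors on the cell surface and activate the kinases JAK1, JAK2 and TYK2. Type I interferons then assemble a complex that contains STAT2 and IRF9 on a DNA motif called the interferon-stimulated response element (ISRE), whereas interferon gamma acts through a different motif, the gamma-activated site (GAS). The genes switched on in this way encode antiviral proteins, antigen-processing proteins and parts of the signalling pathway itself, and many of them respond also to sensors of nucleic acid inside the cell through the factors IRF3 and IRF7.

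The promoters of the members were read from RefSeq (GRCh38.p14), as windows from 250 bases before to 50 bases after each start site. An entry was found for 35 of the 44 members, and 10 of these had more than 1. IRF7, OAS2, IFIT2, GBP2, IFITM2, MX2, USP18, TRIM22 and OASL were not in the table. The ISRE was searched on both strands as the letters GAAANN followed directly by GAAA, and the GAS as TTC and GAA with 3 bases of any kind between them; matches of either motif that overlap each other were all kept. The ISRE was in the windows of 24 of the 35 members (68.6%) and of 1195 of all 27305 genes (4.38%), and the GAS in those of 13 members (37.1%) and 9.38% of all genes. Of the 11 members with an entry whose level changed in at least 1 comparison below, 9 held an ISRE, and of the 21 tested members with an entry whose level passed no test, 12 did. A match describes the letters of the window and not a bound site. PARP9 and DTX3L, which face away from each other, share 1 match, which begins at position −41 of PARP9 and at position −6 of DTX3L, counted from their start sites. The stretches below are shown as 7 of the 9 members with a changed level whose windows hold a match, and each is printed in the gene's own direction with the ISRE match (or its reverse complement) in capitals.
MX1 (chr21:41431824-41431893, plus strand): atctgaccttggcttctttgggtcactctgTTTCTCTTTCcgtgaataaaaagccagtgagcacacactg
IFITM3 (chr11:320856-320942, minus strand): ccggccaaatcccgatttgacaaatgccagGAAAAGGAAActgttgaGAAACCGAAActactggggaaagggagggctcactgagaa
IFIT1 (chr10:89392477-89392559, plus strand): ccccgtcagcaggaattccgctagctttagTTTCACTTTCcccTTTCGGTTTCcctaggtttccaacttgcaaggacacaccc
IFIT3 (chr10:89327811-89327914, plus strand): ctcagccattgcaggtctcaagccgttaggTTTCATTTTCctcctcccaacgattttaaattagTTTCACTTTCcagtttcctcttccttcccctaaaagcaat
DDX60 (chr4:168318766-168318870, minus strand): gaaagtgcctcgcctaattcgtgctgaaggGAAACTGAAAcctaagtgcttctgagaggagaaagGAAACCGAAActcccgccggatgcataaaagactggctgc
OAS3 (chr12:112938301-112938501, plus strand): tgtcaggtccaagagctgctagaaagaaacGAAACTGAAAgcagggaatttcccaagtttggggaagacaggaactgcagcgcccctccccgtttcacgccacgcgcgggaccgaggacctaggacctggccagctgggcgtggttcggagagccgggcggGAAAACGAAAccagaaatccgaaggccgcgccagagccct
GBP1 (chr1:89065296-89065365, minus strand): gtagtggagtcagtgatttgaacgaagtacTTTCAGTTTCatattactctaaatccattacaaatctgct
The MX1 stretch lies before a downstream start site, and the window of a start site further upstream holds a match that begins at position 12, inside the transcript. The IFIT3 stretch lies before an upstream start site. The window of a start site further downstream, not printed, holds matches that begin at positions −94 and −51. IFIT5 and PARP9, each called lower in a comparison with shCont, are not printed. Their stretches reach 36 bases into the transcript of IFIT5 and 34 into that of DTX3L. The printed stretches of OAS3 and IFITM3 also reach into the transcripts of these genes, by 28 and 5 bases. The printed matches in MX1, IFIT1, IFIT3 and GBP1 lie on the strand opposite to the gene, and those in IFITM3, DDX60 and OAS3 on its own strand.

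**Figure D1:**
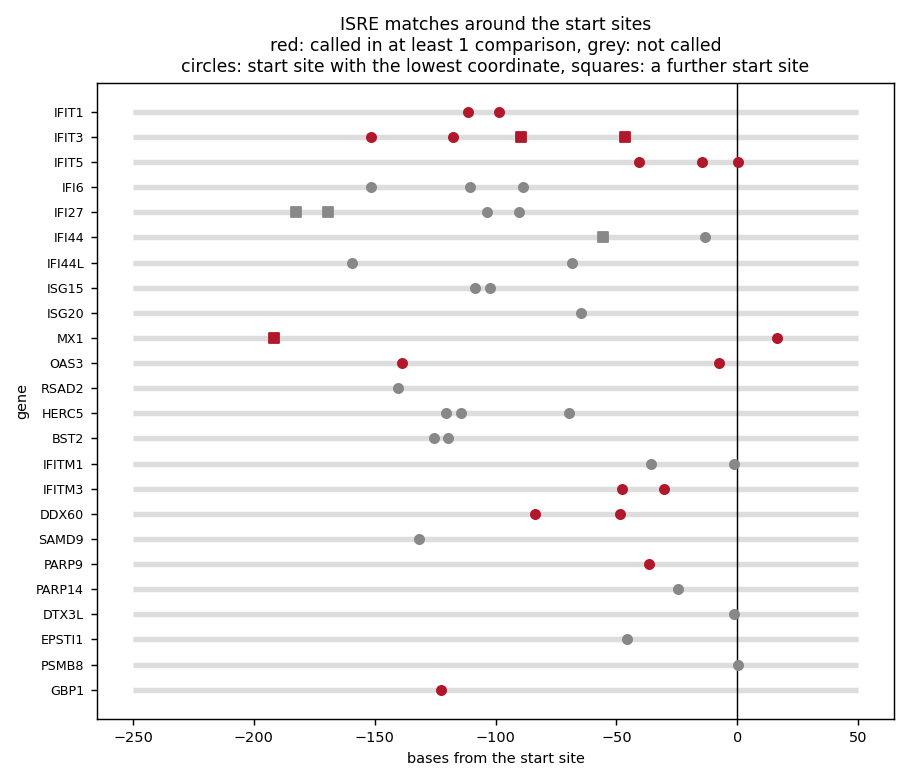
ISRE matches in the promoter windows of the 24 members that hold one, with bases from the start site on the horizontal axis and 1 gene per line. Red marks genes called in at least 1 comparison and grey the others, circles belong to the matched start site with the lowest coordinate and squares to a further one. IFIT5, IFI6 and HERC5 hold 3 matches in 1 window.

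Library totals ran from 17314662 to 23588174 counts. shCont replicate 1 stood apart: its counts differed from those of shCont replicates 2 and 3 by a chi-square of 66.8 and 81.3 per gene, against 5.03 between the latter, and shp16 replicate 1 differed from shp16 replicates 2 and 3 by 36.3 and 35.6, against 1.93. The biological coefficient of variation came to 0.149 with all libraries and to 0.0903 once shCont replicate 1 was left out, so each count of members is given also without that library. Of the targeted genes, CDKN2A was at 162, 113 and 103 CPM in shCont, 78.1, 93.5 and 99.9 in shp16 cells and 82.6, 90.0 and 82.4 in shp16+shATR cells. Its log2 fold change was −0.48 in shp16 against shCont, which did not pass the test (edgeR adjusted p = 0.0723), and −0.57 in shp16+shATR against shCont (edgeR adjusted p = 0.0263). Without shCont replicate 1 these were −0.26 (edgeR adjusted p = 0.0681) and −0.35 (edgeR adjusted p = 0.0154). Of the 9 fits that left out a library, CDKN2A was called in 1 for the first of these comparisons and in 6 for the second. Gene-level counts cannot tell p16 from the other product of CDKN2A. ATR was at 45.9, 93.5 and 96.4 CPM in shCont, 93.5, 83.4 and 85.6 in shp16 cells and 39.9, 40.0 and 41.0 in shp16+shATR cells, so shCont replicate 1 lay near the level of the ATR knockdown. ATR fell by 1.12 on the log2 scale in shp16+shATR against shp16 (edgeR adjusted p = 0.0128). That call stood in 5 of the 9 fits that left out a library, over which the log2 fold change ran from −1.15 to −1.07. Melanocyte and melanoma markers, summed over a list of 10 genes, were at 13583 to 15256 CPM in shCont, 7973 to 13207 in shp16 and 11170 to 13276 in shp16+shATR. The lineage named by the labels was thus present in every library, with the sum lower in every knockdown library than in shCont. In shp16 against shCont, 2 of the 10 were called lower, where 7.59% of all genes were. In shp16+shATR, 1 was called higher and 1 lower against shp16, and 1 lower against shCont. Summed leukocyte markers stayed between 0.854 and 1.41 CPM, with PTPRC, CD3D and CD3E at 0 in every library. A list of 4 epithelial genes was at 9.97 to 19.8 CPM in shCont, 26.4 to 40.1 in shp16 and 26.7 to 29.2 in shp16+shATR, with 1 of its 2 tested genes higher in both knockdown groups than in shCont, and its part in the results below was not tested. In bulk samples, fewer cells of a type and less RNA per cell cannot be told apart.

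Across the 3 groups, with the values given gene by gene below, MX1, IFITM3 and XAF1 were higher in both knockdown groups than in shCont, IFIT2, IFIT3 and OASL were higher when the ATR hairpin was added to the p16 hairpin, and OAS3 and GBP1 were higher in shp16 than in shCont and lower again in shp16+shATR. GBP2 was lower in shp16+shATR than in either other group. Most other members, among them IRF9 and USP18, passed no test in any comparison with all 9 libraries.

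Compared per gene length, the members were expressed at very different levels. Their FPKM, a read level scaled by gene length and library size, averaged over the 9 libraries, was highest for IFI6, a mitochondrial survival protein, at 197, and for BST2, the protein tetherin that holds budding viruses at the cell surface, at 180. IFI35 followed at 60.9, IFITM3 at 48.1, STAT2 at 38.3 and ISG15 at 37.1. In all, 19 members reached an FPKM of 10, 14 were between 1 and 10, and 11 were under 1, among them IRF9 at 0.432, XAF1 at 0.683, OASL at 0.476, TRIM22 at 0.358, IFI27 at 0.422 and EPSTI1 at 0.230. The median over the 40 members tested was 9.08 FPKM, against 5.63 over all genes tested. Over the libraries IFI6 ranged from 101 to 273 FPKM and BST2 from 103 to 265 FPKM, both lowest in shp16 replicate 1 and highest in shCont replicate 1. Their ranges overlapped each other, and both lay above IFI35, which reached at most 79.0 FPKM in any library. The 4 members not tested had counts near the limit of detection. IFITM1 had 36 counts in all 9 libraries, RSAD2 had 52, IFI44L had 48 and IFITM2 had 1, and for IFITM1 26 of the 36 counts were in shp16+shATR, as were 29 of the 48 counts of IFI44L.

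**Figure D2:**
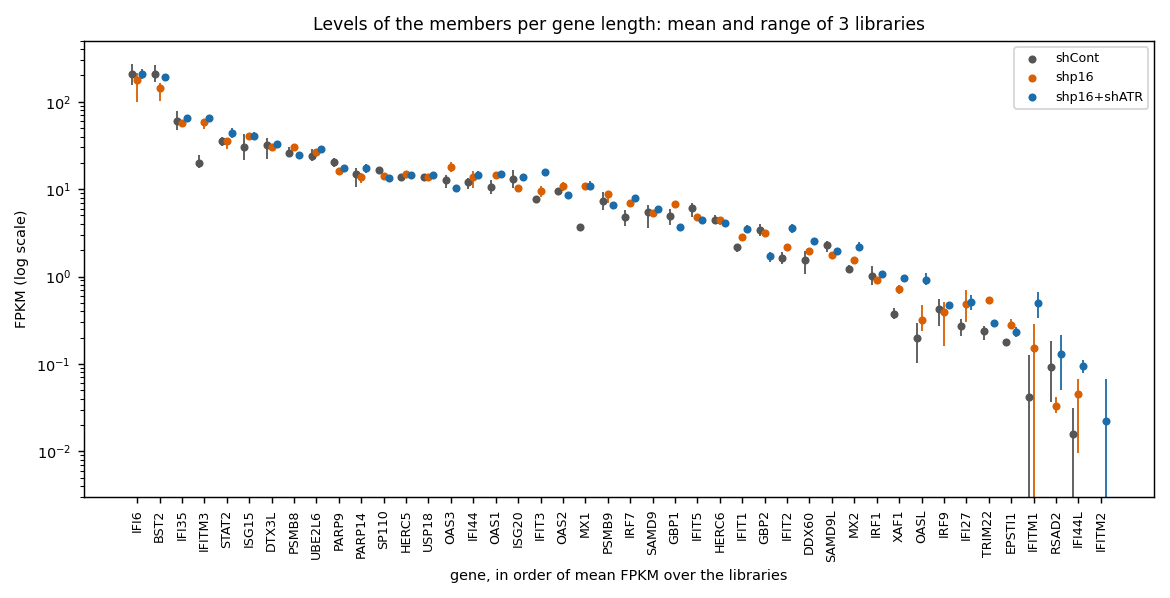
FPKM of the 44 members on a log scale, in the order of their mean over the libraries, with points for the mean of each group and lines from the lowest to the highest of its 3 libraries. Groups listed at 0 are not drawn, and lines that reach the lower edge run to 0. IFI6 and BST2 lie highest, and IFITM3 and MX1 show shCont below both knockdown groups.

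Messages of the interferons themselves were close to absent. The 21 interferon genes looked up, from IFNA1 and IFNB1 to IFNG and IFNL3, had 32 counts together over the 9 libraries, at most 4 for 1 gene in 1 library, and the filter on low counts removed all 21. Of the receptors and proximal signalling genes, 9 were tested. Between shp16 and shCont, 2 were higher and 2 lower, where 7.23% of all genes were called higher and 7.59% lower. JAK2 rose by a log2 fold change of 1.06, from 8.88, 22.9 and 23.6 CPM in shCont to 42.3, 36.8 and 36.3 in shp16, and STAT3, a factor shared with other cytokines, rose by 0.47, while the interferon gamma receptor chains IFNGR1 and IFNGR2 fell by 0.53 and 0.46. These 4 calls stood in 5 to 7 of the 9 fits that left out a library each, and the JAK2 change was 0.72 without shCont replicate 1. Between shp16+shATR and shp16, 1 was higher and 1 lower, where 2.73% and 3.49% of all genes were. The receptor chain IFNAR1 rose by 0.44, a call that stood in 2 of the 9 fits (without shCont replicate 1 or 3), and STAT3 fell by 0.54, a call that stood in 4 (without any one of the shCont replicates or shp16 replicate 3). Between shp16+shATR and shCont, TYK2 fell by 0.41, as 1 of 9 where 12.7% of all genes were called lower, and this call was lost without any one of the shp16+shATR libraries. Of 4 other IRF factors tested, IRF3 fell by 0.56 in shp16 against shCont, a call that stood in 2 of the 9 fits, those without shCont replicate 3 and without shCont replicate 1, where the fall was 0.30. Of 9 negative regulators TRIM21, an antibody receptor and ubiquitin ligase, fell by 0.51 in shp16+shATR against shCont, a call lost without shp16+shATR library b or c.

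Of the transcription factors among the members, IRF7, the factor that amplifies type I interferon responses, changed. Its level was 12.4, 9.20 and 7.79 CPM in shCont, 16.4, 13.7 and 13.0 in shp16 cells and 17.3, 15.3 and 16.4 in shp16+shATR cells. Every knockdown library thus lay above every shCont library. The log2 fold change was 0.74 in shp16+shATR against shCont (standard error 0.171, edgeR adjusted p = 0.00922), and 0.55 in shp16 against shCont, just outside the threshold (edgeR adjusted p = 0.0520) and inside it without shCont replicate 1 (0.75, edgeR adjusted p = 0.00236). STAT2 was at 108, 125 and 117 CPM in shCont, 100, 125 and 122 in shp16 cells and 143, 162 and 129 in shp16+shATR cells. Although its shp16+shATR libraries were the 3 highest, the log2 fold changes of 0.32 against shp16 (edgeR adjusted p = 0.166) and 0.31 against shCont (edgeR adjusted p = 0.0939) did not pass. IRF1, which carries much of the interferon gamma response, was at 7.02, 4.78 and 4.10 CPM in shCont, 5.09, 4.51 and 4.44 in shp16 cells and 5.48, 5.24 and 5.84 in shp16+shATR cells. IRF9, the DNA-binding part of the complex with STAT2, was at 0.884, 0.976 and 0.50 CPM in shCont, 0.312, 0.901 and 0.926 in shp16 cells and 0.923, 0.865 and 0.820 in shp16+shATR cells. The shCont range of both genes contained or overlapped the other groups, and neither passed a test. IRF9, with 145 counts in all libraries, lies within the span of RNF31 on the same strand, so reads of the 2 genes may not be told apart.

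**Figure D3:**
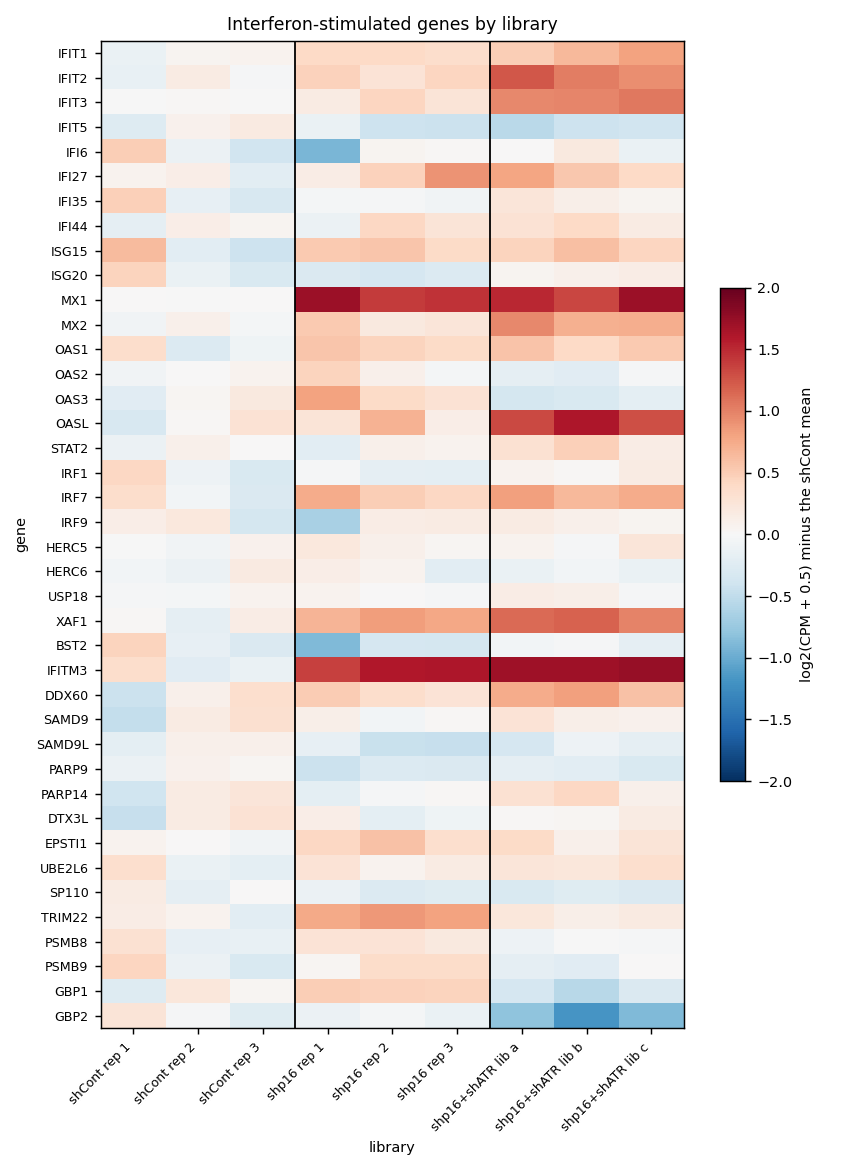
Level of the 40 tested members in each of the 9 libraries, as log2(CPM + 0.5) minus the mean of the shCont libraries, from −2 (blue) to 2 (red). MX1 and IFITM3 are red in all 6 knockdown libraries, OASL, IFIT2 and IFIT3 in the shp16+shATR libraries, and GBP2 is blue in shp16+shATR.

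The IFIT proteins bind viral RNA and block its translation, and their genes lie side by side on chromosome 10 (91061712 to 91180758 in the GRCh37 coordinates of the deposited table). IFIT2 was at 5.08, 6.42 and 5.54 CPM in shCont, 7.95, 6.97 and 7.80 in shp16 cells and 14, 12 and 11.2 in shp16+shATR cells. IFIT3 was at 19.4, 19.7 and 19.2 CPM in shCont, 21.9, 26.4 and 23.2 in shp16 cells and 38.4, 38.6 and 40.8 in shp16+shATR cells. For both genes the groups formed 3 separate steps, with shp16+shATR highest. IFIT2 rose by 0.71 on the log2 scale in shp16+shATR against shp16, a 1.64-fold difference (standard error 0.149, edgeR adjusted p = 0.0171), and IFIT3 by 0.72, a 1.65-fold difference (standard error 0.106, edgeR adjusted p = 0.00306). Against shCont the rises were 1.13 for IFIT2 (edgeR adjusted p = 0.000322) and 1.01 for IFIT3 (edgeR adjusted p = 5.81e-05). In shp16 against shCont neither passed, at 0.42 (edgeR adjusted p = 0.0935) and 0.30 (edgeR adjusted p = 0.0888). IFIT1 was at 5.43, 6.27 and 6.29 CPM in shCont, 8.05, 8.06 and 7.75 in shp16 cells and 8.59, 9.69 and 10.9 in shp16+shATR cells. These 3 groups did not overlap either, and the log2 fold change was 0.70 in shp16+shATR against shCont (standard error 0.144, edgeR adjusted p = 0.00479), 0.41 in shp16 against shCont (edgeR adjusted p = 0.0829) and 0.29 in shp16+shATR against shp16 (edgeR adjusted p = 0.286). IFIT5 went the other way, from 20.2, 25.7 and 27.4 CPM in shCont to 22.2, 18.1 and 17.8 in shp16 cells and 16.5, 18.0 and 18.6 in shp16+shATR cells. Its fall of 0.46 in shp16+shATR against shCont (edgeR adjusted p = 0.0356) was called in 2 of the 9 fits that left out a library, those without shCont replicate 1 and without shp16 replicate 1. IFIT1, IFIT2 and IFIT3 lie within the span of LIPA, a lysosomal lipase gene on the opposite strand with 35373 counts, which itself rose by 0.43 in shp16+shATR against shp16 (edgeR adjusted p = 0.0333) and by 0.58 against shCont. Whether counting used the strand is not given in the sources used here, and the part of LIPA reads in these 3 genes was not tested.

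The OAS enzymes make the second messenger that activates RNase L when they bind double-stranded RNA. OAS3 was at 72.4, 87.1 and 97.8 CPM in shCont, 148, 111 and 104 in shp16 cells and 66.3, 69.1 and 74.2 in shp16+shATR cells. All shp16 libraries lay above all others, and shp16+shATR overlapped shCont. OAS3 rose by 0.50 in shp16 against shCont (edgeR adjusted p = 0.0453) and fell by 0.80 in shp16+shATR against shp16, a 1.74-fold difference (standard error 0.151, edgeR adjusted p = 0.0107). OASL, a related protein without the enzyme's activity, was low, at 0.221, 0.411 and 0.599 CPM in shCont, 0.571, 0.948 and 0.487 in shp16 cells and 1.73, 2.25 and 1.69 in shp16+shATR cells. The shp16+shATR libraries stood clear of all others, which overlapped each other. OASL rose by 2.21 against shCont (standard error 0.404, edgeR adjusted p = 0.00228) and by 1.49 against shp16 (standard error 0.378, edgeR adjusted p = 0.0388), the latter called in 2 of the 9 fits that left out a library, those without shCont replicate 1 (edgeR adjusted p = 0.00831) and without shCont replicate 3. OAS1 was at 26.7, 17.0 and 19.6 CPM in shCont, 30.7, 28.5 and 27.1 in shp16 cells and 31.1, 27.5 and 30.1 in shp16+shATR cells. Both knockdown groups lay above shCont and overlapped each other, with log2 fold changes of 0.45 (edgeR adjusted p = 0.0757) and 0.49 (edgeR adjusted p = 0.0408) against it. The OAS1 call in shp16+shATR against shCont stood in 2 of the 9 fits that left out a library, those without shCont replicate 1 (0.69, edgeR adjusted p = 0.000321) and without shp16 replicate 1. OAS2, the neighbour of OAS1 and OAS3 on chromosome 12, had 45.1 ± 2.25 CPM in shCont, 51.2 ± 9.11 in shp16 cells and 40.9 ± 3.13 in shp16+shATR cells (SD, n = 3 each) and passed no test.

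MX1 and MX2 encode dynamin-like GTPases that trap viral particles, and GBP1 and GBP2 encode guanylate-binding proteins, which are induced most strongly by interferon gamma. MX1 (ENSG00000157601, chromosome 21 from 42792231 to 42831141 in GRCh37) was at 12.9 CPM in each shCont library, at 43.3, 34.8 and 36.0 in shp16 cells and at 37.6, 33.5 and 43.3 in shp16+shATR cells. The knockdown groups overlapped each other at nearly 3 times the control level. MX1 rose by 1.56 on the log2 scale in shp16 against shCont, a 2.94-fold difference (standard error 0.132, edgeR adjusted p = 1.97e-05), and by 1.56 in shp16+shATR against shCont (edgeR adjusted p = 1.29e-05). Between the knockdown groups its log2 fold change was 0.00 (standard error 0.126, edgeR adjusted p = 0.992). MX2, on the same stretch of chromosome 21, was at 4.64, 5.29 and 4.75 CPM in shCont, 7.27, 5.64 and 5.85 in shp16 cells and 9.98, 8.31 and 8.46 in shp16+shATR cells. Its groups did not overlap, and it rose by 0.86 in shp16+shATR against shCont (standard error 0.161, edgeR adjusted p = 0.00253), while the step of 0.51 in shp16+shATR against shp16 did not pass (edgeR adjusted p = 0.0853).

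GBP1 was at 12.3, 17.5 and 15.2 CPM in shCont, 21.0, 20.7 and 20.5 in shp16 cells and 11.7, 9.91 and 12 in shp16+shATR cells. The shp16 libraries were highest and the shp16+shATR libraries lowest, with no overlap between any groups. GBP1 rose by 0.47 in shp16 against shCont (edgeR adjusted p = 0.0477), fell by 0.89 in shp16+shATR against shp16, a 1.85-fold difference (standard error 0.146, edgeR adjusted p = 0.00503), and differed by −0.42 between shp16+shATR and shCont (edgeR adjusted p = 0.0587). GBP2, its neighbour on chromosome 1, was at 15.2, 12.4 and 10.6 CPM in shCont, 11.6, 12.2 and 11.4 in shp16 cells and 7.04, 5.28 and 6.61 in shp16+shATR cells. The shp16 libraries lay inside the shCont range and the shp16+shATR libraries below both. GBP2 fell by 0.90 against shp16 (standard error 0.167, edgeR adjusted p = 0.00951) and by 1.02 against shCont, a 2.03-fold difference (edgeR adjusted p = 0.00115). It overlaps GBP7, which had 2 counts in all libraries.

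Of the antiviral proteins that sit in membranes, IFITM3, which blocks the fusion of incoming viruses, changed. IFITM3 (ENSG00000142089, chromosome 11 from 319669 to 327537 in GRCh37) was at 20.5, 13.6 and 14.4 CPM in shCont, 41.9, 49.4 and 49.96 in shp16 cells and 52.9, 52.8 and 54.3 in shp16+shATR cells. The shCont range lay far below every knockdown library. The log2 fold change was 1.54 in shp16 against shCont, a 2.90-fold difference (standard error 0.153, edgeR adjusted p = 6.22e-05), 1.72 in shp16+shATR against shCont (edgeR adjusted p = 1.90e-05), and 0.18 in shp16+shATR against shp16 (edgeR adjusted p = 0.554). IFITM1 and IFITM2, with close to no counts, are near copies of IFITM3, so how reads were shared among the 3 genes is uncertain. IFITM1 also lies within the span of IFITM2 on the same strand, so reads of these 2 genes may not be told apart. BST2 was at 281, 183 and 168 CPM in shCont, 112, 162 and 161 in shp16 cells and 197, 203 and 180 in shp16+shATR cells. Its shp16 libraries were the lowest, but the log2 fold changes of −0.54 in shp16 against shCont (edgeR adjusted p = 0.0864) and 0.42 in shp16+shATR against shp16 (edgeR adjusted p = 0.265) did not pass, and the first was −0.28 without shCont replicate 1. The first was called with no filter on low counts, by DESeq2 and in the fit without shCont replicate 3.

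ISG15 is a ubiquitin-like protein, UBE2L6 and HERC5 attach it to other proteins, HERC6 is a relative of HERC5, and USP18 removes it. ISG15 was at 32.0, 17.6 and 15.2 CPM in shCont, 29.6, 30.4 and 27.0 in shp16 cells and 27.9, 31.2 and 27.6 in shp16+shATR cells. The knockdown libraries lay together above shCont replicates 2 and 3, while shCont replicate 1 lay above them. With that library the log2 fold change in shp16 against shCont was 0.42 (standard error 0.223, edgeR adjusted p = 0.232), and without it 0.82 (edgeR adjusted p = 0.000190); against shCont, shp16+shATR gave 0.42 (edgeR adjusted p = 0.203) and 0.82 (edgeR adjusted p = 0.000105). By edgeR over all libraries and with the filter on low counts, 0 of these 5 genes passed in any comparison, where 14.8%, 6.22% and 23.6% of all genes did, also 0 at an unadjusted p under 0.05 and 0 by DESeq2. With no filter on low counts, ISG15 was called higher in both comparisons with shCont. Without shCont replicate 1, 2 of the 5 were called higher in each comparison with shCont, where 2170 and 2569 of 16184 genes were called higher. In either direction, 25.9% and 33.3% of all genes were called there. Between the knockdown groups 0 of the 5 were called, where 19.9% of all genes were. The second gene was UBE2L6, with log2 fold changes of 0.33 in shp16 (edgeR adjusted p = 0.0146) and 0.43 in shp16+shATR (edgeR adjusted p = 0.00241). USP18, with 29.3 ± 1.21 CPM in shCont, 29.6 ± 0.990 in shp16 cells and 31.1 ± 1.96 in shp16+shATR cells (SD, n = 3 each), and HERC5, with 48.0 ± 2.59, 52.3 ± 3.41 and 51.5 ± 4.86, overlapped in every comparison. USP18 has a near copy on the same chromosome, so its counts are uncertain.

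PARP9 and DTX3L form a complex that ubiquitinates histones, and PARP14 is their neighbour on chromosome 3. PARP9 was at 128, 148 and 143 CPM in shCont, 103, 115 and 114 in shp16 cells and 123, 121 and 112 in shp16+shATR cells. The shp16 and shp16+shATR libraries lay below shCont, and PARP9 fell by 0.33 in shp16 against shCont (standard error 0.102, edgeR adjusted p = 0.0491), a call that of the 9 fits that left out a library stood in that without shCont replicate 1 (−0.40, edgeR adjusted p = 0.00209). DTX3L, which shares its promoter, had 189 ± 48.0 CPM in shCont, 179 ± 21.2 in shp16 cells and 194 ± 10.9 in shp16+shATR cells, and PARP14 had 124 ± 28.0, 117 ± 9.07 and 149 ± 15.9 (SD, n = 3 each), neither past the test. PARP9 and DTX3L overlap by 340 bases on opposite strands.

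Among the nuclear and RNA effectors, TRIM22, a ubiquitin ligase of the nucleus, was at 0.839, 0.771 and 0.549 CPM in shCont, 1.56, 1.71 and 1.61 in shp16 cells and 0.923, 0.822 and 0.871 in shp16+shATR cells. The shp16 libraries lay above all others, which overlapped each other. TRIM22 rose by 1.16 in shp16 against shCont (standard error 0.290, edgeR adjusted p = 0.0209), and its difference of −0.90 in shp16+shATR against shp16 did not pass (edgeR adjusted p = 0.0918) except, among the fits that left out a library, without shCont replicate 1 (edgeR adjusted p = 0.0430). It had 196 counts in all libraries and lies within the span of TRIM5, on the opposite strand with 6736 counts, for which no comparison passed. DDX60, a helicase that works with the RNA sensor RIG-I, was at 6.67, 9.91 and 11.7 CPM in shCont, 13.2, 11.8 and 11.3 in shp16 cells and 15.7, 16.6 and 14 in shp16+shATR cells. Every shp16+shATR library lay above all others, and DDX60 rose by 0.72 against shCont (standard error 0.185, edgeR adjusted p = 0.0155), or by 0.51 without shCont replicate 1 (edgeR adjusted p = 0.00804), a call lost without shp16+shATR library a or b. The nuclear body protein SP110 and the exonuclease ISG20 passed no test by edgeR over all libraries, with ISG20 at 98.1 CPM in shCont replicate 1 and 65.2 and 58.2 in the other shCont libraries. By limma on log2(FPKM + 1), SP110 was called lower in shp16+shATR against shCont. ISG20 was called higher in shp16+shATR against shp16 with only the groups compared. Without shCont replicate 1, ISG20 was called higher in shp16+shATR against both other groups.

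Of the remaining induced genes, XAF1, which opposes the inhibitor of apoptosis XIAP, was at 1.37, 1.13 and 1.55 CPM in shCont, 2.44, 2.80 and 2.63 in shp16 cells and 3.52, 3.68 and 3.18 in shp16+shATR cells. The groups formed 3 steps without overlap. XAF1 rose by 0.96 in shp16 against shCont (standard error 0.218, edgeR adjusted p = 0.0134) and by 1.35 in shp16+shATR against shCont, a 2.55-fold difference (standard error 0.214, edgeR adjusted p = 0.000936), while the step between the knockdown groups was 0.40 (edgeR adjusted p = 0.304). IFI6, IFI27, IFI35, IFI44, SAMD9, SAMD9L and EPSTI1 passed no test in any comparison over all libraries. The immunoproteasome subunits PSMB8 and PSMB9, which shape the peptides presented on MHC class I, were lower in each shp16+shATR library than in each shp16 library. PSMB8 had 35.0 ± 6.97 CPM in shCont, 41.2 ± 1.20 in shp16 cells and 33.5 ± 1.30 in shp16+shATR cells, and PSMB9 had 19.8 ± 5.65, 23.3 ± 2.92 and 17.6 ± 1.57 (SD, n = 3 each). The log2 fold changes between the knockdown groups, −0.30 for PSMB8 (edgeR adjusted p = 0.243) and −0.40 for PSMB9 (edgeR adjusted p = 0.252), did not pass, and without shCont replicate 1 both did (edgeR adjusted p = 0.00922 and 0.0263). Without that library both were also called higher in shp16 against shCont. The 2 genes overlap each other, and PSMB9 overlaps TAP1.

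**Figure D4:**
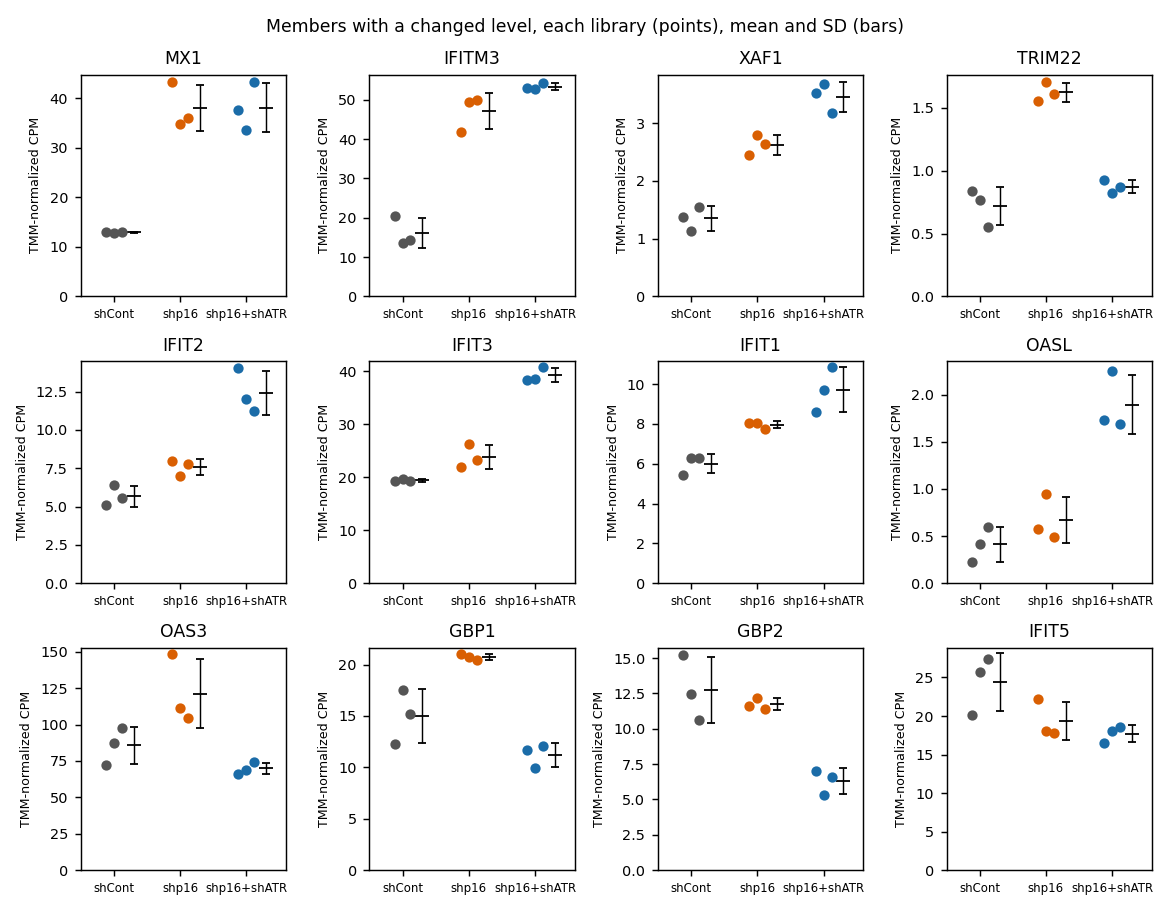
TMM-normalized CPM of 12 members in each library, with 1 point per library and beside each group its mean and SD (n = 3), on axes that start at 0. MX1 and IFITM3 lie near 3 times the control level in both knockdown groups, IFIT2, IFIT3 and OASL are highest in shp16+shATR, and OAS3, GBP1 and TRIM22 are highest in shp16.

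Between shp16 and shCont, MX1, IFITM3, TRIM22, XAF1, OAS3 and GBP1 were higher and PARP9 lower in the cells with the p16 hairpin, where CDKN2A itself did not pass the test. Of the 40 members tested, 6 were called higher and 1 lower, 7 in all (17.5%), where 14.8% of all genes were called, 7.23% higher and 7.59% lower. The members had a median log2 fold change of 0.19, against −0.016 over all genes tested. The libraries of the groups did not overlap for 16 members, 14 of them higher and 2 lower in shp16, where 33.6% of all genes did not overlap. Without shCont replicate 1, 17 of 41 members were called, 13 higher and 4 lower, where 25.9% of all genes were. Added by that fit were IFIT3, IRF7, ISG15, OAS1, PSMB8, PSMB9 and UBE2L6, higher, and IFIT5, PARP14 and SAMD9L, lower. MX1 and IFITM3 passed in each of the 9 fits that left out a library, XAF1 in 7 (not without shCont replicate 2 or shp16 replicate 2), TRIM22 in 5, OAS3 in 3, GBP1 in 2 and PARP9 in 1. The number called was 3 without shCont replicate 2, 5 without shCont replicate 3, 4, 2 and 4 without shp16 replicates 1, 2 and 3, and 4 without any one of the shp16+shATR libraries.

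Between shp16+shATR and shp16, the change of members was mixed. OASL, IFIT3 and IFIT2 were higher and GBP2, GBP1 and OAS3 lower, which made 6 of 40 members (15%), where 6.22% of all genes were called, 2.73% higher and 3.49% lower. The median log2 fold change was 0.11 over the members and 0.0021 over all genes tested. The groups did not overlap for 20 members, 14 of them higher and 6 lower in shp16+shATR, where 37.7% of all genes did not. Without shCont replicate 1, which enters this comparison through the shared estimate of spread, 15 members were called, 9 higher and 6 lower, where 19.9% of all genes were. The additional calls were BST2, DDX60, ISG20, MX2, PARP14 and STAT2, higher, and PSMB8, PSMB9 and TRIM22, lower. IFIT3 and GBP1 passed in each of the 9 fits that left out a library, GBP2 in 8 (not without shp16+shATR library b), OAS3 in 7 (not without library a or b), IFIT2 in 5 and OASL in 2. Leaving out a shp16+shATR library gave 3 calls without library a and 2 without library b, and without shp16 replicates 2 or 3 there were 4.

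Between shp16+shATR and shCont, more members had changed. OASL, IFITM3, MX1, XAF1, IFIT2, IFIT3, MX2, IRF7, DDX60, IFIT1 and OAS1 were higher and GBP2 and IFIT5 lower, 13 of 40 members (32.5%), where 23.6% of all genes were called, 10.9% higher and 12.7% lower. By family, 3 of 4 IFIT genes were higher and 1 lower, 2 of 4 OAS genes were higher, and of the MX and GBP genes both MX genes were higher and 1 GBP gene lower. The median log2 fold change was 0.13 over the members and −0.018 over all genes tested. The groups did not overlap for 20 members, 15 of them higher and 5 lower in shp16+shATR, where 41.5% of all genes did not. Without shCont replicate 1, 20 members were called, 15 higher and 5 lower, where 33.3% of all genes were. With any other library left out, 10 to 13 members were called, and IFIT1, IFIT2, IFIT3, IFITM3, IRF7, MX1, MX2, OASL, XAF1 and GBP2 were among them each time. This comparison shares its shCont libraries with the first and its shp16+shATR libraries with the second, and the first and second share the shp16 libraries, so the values of the 3 comparisons are not independent.

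**Figure D5:**
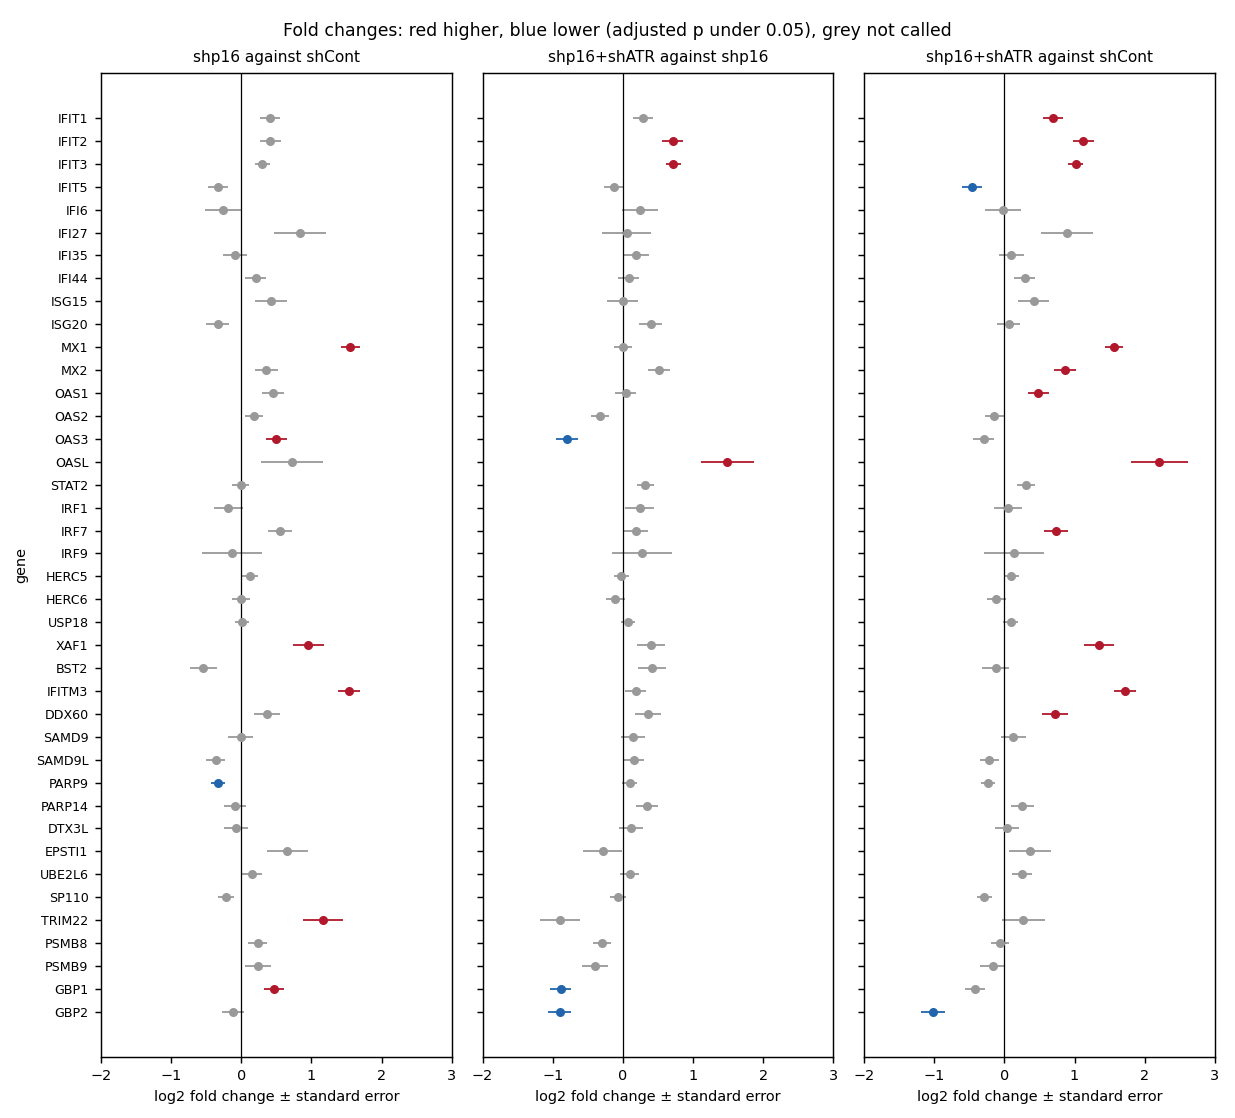
Log2 fold change with its standard error for the 40 tested members in the 3 comparisons, red for an adjusted p under 0.05 and higher, blue for lower and grey for not called. In shp16 against shCont 7 members are coloured, in shp16+shATR against shp16 6, and in shp16+shATR against shCont 13.

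Within groups, the members varied most in shCont. The highest library was a median of 1.43 times the lowest over the 40 members in shCont, 1.18 times in shp16 and 1.13 times in shp16+shATR, and 18, 4 and 0 members exceeded 1.5 times. In shCont, replicate 1 was the highest for 17 members and the lowest for 16. This spread was not set against that of all genes, over which shCont replicate 1 also stood apart, as given above. The median of the members' log2 levels, set to the shCont mean, was 0.16 to 0.17 in the shp16 libraries and 0.12 to 0.24 in the shp16+shATR libraries, while the centring itself holds the shCont libraries near 0. In position, 25 of the 44 members lay in 10 groups of neighbours less than 250000 bases apart. Neighbours did not always move alike: on chromosome 10 IFIT5 fell in shp16+shATR against shCont where IFIT1, IFIT2 and IFIT3 rose, whereas on chromosome 1 GBP1 and GBP2 both fell in shp16+shATR against shp16, by 0.89 and 0.90.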

How the data were processed

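Per the labels, the 9 libraries were 3 each of shCont, shp16 and shp16+shATR cells, and the submitters' processing notes name STAR 2.6.1 and DESeq2 2. They name GRCh38, but the gene coordinates in the deposited tables are those of GRCh37. Of 45342 genes in GENCODE 29 (GRCh38), 301 share a start with them. The counting program is not given in the sources used here. The authors deposited unnormalized read counts per gene and FPKM, which are these counts scaled by gene length and library total. The 3 shp16+shATR count columns share 1 name and are called libraries a, b and c. The FPKM columns carry replicate numbers, so the check of pairing and the block for shp16+shATR used FPKM. No column was left out.

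Counts were normalized by TMM and filtered by filterByExpr in edgeR 4.0.16 (R 4.3.3), and the quasi-likelihood test was fitted to all 9 libraries with 1 coefficient per group. CPM are counts scaled to a common library size with the TMM factors. A gene was called at a Benjamini-Hochberg adjusted p under 0.05 over 15776 genes. Given 3 libraries against 3, an exact permutation test cannot go below p = 0.1 and was not used. FPKM served to compare levels between genes and in the limma alternatives. Members called in any comparison were named with all libraries, as were IRF9, STAT2, IRF1, IRF7, ISG15, IFIT1 and MX1. Members, lists and rules were chosen with earlier results of these data known. 1 gene of the signalling list is not reported here. Alternatives were upper-quartile normalization, DESeq2 1.42.0, no filter, at least 10 counts in every library, only the groups compared, limma 3.58.1 on log2 FPKM with 0.1 or 1 added, the replicate number as a block, an adjusted p under 0.01 and leaving out each library. Library size without TMM was chosen after seeing the data. The steps were tested on simulated data.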

Additional observations from a re-analysis of the deposited data

How the results depend on the processing

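Of 171 values recomputed for the counts of genes called, the counts of members called and the medians of the members, 117 stayed within 1.5 times the count or within the spread between replicates (0.034 for a median), and no median changed sign. Library size without TMM moved none of them past these limits. The first comparison is shp16 against shCont, the second shp16+shATR against shp16, the third shp16+shATR against shCont. With only the groups compared, 1186 genes and 2 members were called in the first and 2878 genes and 12 members in the second. DESeq2 called 1508 genes in the second. At an adjusted p under 0.01, the genes called were 994 in the first, 309 in the second and 1974 in the third, and the members called 2 in the first and 3 in the second. The member median was 0.14 in the first and 0.14 in the second with upper-quartile normalization, 0.14 in the first and 0.087 in the third by limma on log2(FPKM + 1), and 0.26 in the third without a filter.

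Over the fits that each left out a library, the genes called ranged from 1344 to 4192, from 292 to 3223 and from 2354 to 5395 in the first, the second and the third, the members called from 2 to 17, from 2 to 15 and from 10 to 20, and the member medians from 0.16 to 0.22, from 0.10 to 0.14 and from 0.11 to 0.25. The highest counts were those without shCont replicate 1, where the coefficient of variation was lowest.

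With a replicate block, edgeR on the counts of shCont and shp16 called 423 genes and 2 members. Limma on log2(FPKM + 0.1) with a replicate block called 1472 genes and 4 members in the first and 438 genes and 2 members in the second comparison. Same-numbered libraries deviated together with correlations from −0.163 to 0.181, so the numbers were not taken to pair the samples.

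Of 1236 values for single genes, 1002 kept direction and call, 187 lost the call, 42 gained it and 5 changed sign. MX1 in shp16+shATR against shp16 was −0.0097 without a filter, −0.059 without shp16 replicate 2, −0.036 without shp16 replicate 3 and −0.098 without shp16+shATR library c, and ran up to 0.11 over the fits that left out a library. ATR in shp16 against shCont was −0.12 without shCont replicate 1, and up to 0.33 over those fits. The cause of these moves was not tested. Genes under about 1 CPM, such as OASL, TRIM22, IRF9 and IFI27, rest on few counts.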

Other observations

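With no filter on low counts, IFI44L and IFITM1, which the filter removed, were called higher in shp16+shATR against shCont. Their counts were 2, 3 and 0 for IFI44L and 0, 2 and 0 for IFITM1 in shCont, 1, 6 and 7 and 3, 5 and 0 in shp16, and 10, 11 and 8 and 5, 13 and 8 in shp16+shATR. RSAD2, which encodes viperin, had 3, 12 and 4 counts in shCont, 3, 2 and 2 in shp16 and 13, 4 and 9 in shp16+shATR. TAP1, a neighbour of PSMB9 that carries peptides into the endoplasmic reticulum and is no member, was called higher in shp16 against shCont (log2 fold change 0.40, edgeR adjusted p = 0.0394) and lower in shp16+shATR against shp16 (−0.43, edgeR adjusted p = 0.0499). CMPK2, which overlaps RSAD2 on the opposite strand and is no member, was called lower in shp16+shATR against shCont (−0.91, edgeR adjusted p = 0.00786). TAP1 and CMPK2 were singled out after their values were seen.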
